A study of Mus musculus with 4 samples.

Results

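Costimulatory and coinhibitory molecules were described here as 8 genes: the ligands Pdcd1lg2, Cd274, Cd80, Cd86, Icosl and Cd276 and the receptors Cd28 and Cd40. They were chosen by gene symbol from a list drawn up with earlier results of these data known, and each was read from its probeset (the group of probes for a gene) with the highest mean signal. All 8 were on the array, of 19938 genes in all. The cells were mouse bone marrow-derived macrophages, grown for 7 days with 10% supernatant of L929 fibroblasts as the source of M-CSF, replated, cultured for 24 h in medium or with IL-4, and sorted for the macrophage surface protein F4/80. BALB/c mice gave the wild-type cells and 4get/Stat6-/- mice the Stat6-/- cells. Mice of the 4get strain carry a reporter in the Il4 gene, which the wild-type label does not name, so the loss of Stat6 and the rest of the strain difference cannot be told apart. Sample protocols put the IL-4 dose at 10 µg/mL, whereas the series text has 10 mg/mL, and which holds is unsettled.

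Each of the 4 groups (medium and IL-4 in either genotype) was measured on 1 array. There were thus no replicates and no test between groups was possible, and precision is limited by having so few arrays. Signals are RMA values on the log2 scale, in which a difference of 1 is 2-fold. A gene is said to have risen, fallen or been higher or lower when it differed by at least 2-fold and the brighter array reached a floor of 2.52, the median of all probesets with 1 gene symbol. The same arrays enter several comparisons, so the comparisons are not independent of each other.

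T cells need a second, costimulatory signal besides their antigen receptor, and antigen-presenting cells such as macrophages supply it through B7 family ligands. CD80 and CD86 bind the activating receptor CD28 and the inhibitory receptor CTLA-4 on T cells, ICOS ligand binds ICOS, and PD-L1 (Cd274) and PD-L2 (Pdcd1lg2) bind the inhibitory receptor PD-1. CD40 is a receptor of the TNF family on the presenting cell, through which T cells activate it. IL-4 acts on macrophages through its receptor and the transcription factor STAT6, and PD-L2 is a known surface protein of macrophages activated in this way.

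The 8 genes separated into 3 patterns. Pdcd1lg2 rose with IL-4 in wild type, by at least 14.5-fold. Cd28, Icosl, Cd80 and Cd86 fell, Cd28 by at least 11.9-fold and the other 3 by 3.86-fold, 3.05-fold and 2.80-fold. Cd274, Cd40 and Cd276 differed by at most 0.23 on the log2 scale in wild type. The rule called 9.74% of all genes in wild type. In Stat6-/- cells it called 0.355% of all genes and 0 of the 7 members that reached the floor there.

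The gene starts of the PD-1 ligand pair and of Cd80 and Icosl, which fell, are shown first, because the genes of this pair lie next to each other on chromosome 19 and gave different values under IL-4. Promoter sequences, from 250 bases before to 50 after the gene start, were matched in a RefSeq table for 5 of the 8 genes, and those of Cd86, Cd28 and Cd40 are not analysed here (build GRCm38.p6, the C57BL/6J genome, not that of the mice used). Capitals mark the matches to the letters searched. All 4 sequences shown are from the plus strand: Pdcd1lg2 at chr19:29410669-29410968, Cd274 at chr19:29367188-29367487, Cd80 at chr16:38458683-38458982 and Icosl at chr10:78069118-78069417.
Pdcd1lg2: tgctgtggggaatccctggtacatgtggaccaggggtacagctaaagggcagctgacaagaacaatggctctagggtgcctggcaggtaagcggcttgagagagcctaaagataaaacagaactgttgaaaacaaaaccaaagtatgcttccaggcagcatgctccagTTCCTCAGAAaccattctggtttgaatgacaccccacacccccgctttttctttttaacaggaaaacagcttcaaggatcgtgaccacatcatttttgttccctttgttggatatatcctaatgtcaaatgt
Cd274: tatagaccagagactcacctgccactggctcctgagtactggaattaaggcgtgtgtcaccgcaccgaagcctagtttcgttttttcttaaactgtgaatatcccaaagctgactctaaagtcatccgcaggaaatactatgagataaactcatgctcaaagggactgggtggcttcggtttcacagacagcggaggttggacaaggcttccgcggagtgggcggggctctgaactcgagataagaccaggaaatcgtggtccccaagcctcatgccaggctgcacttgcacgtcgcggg
Cd80: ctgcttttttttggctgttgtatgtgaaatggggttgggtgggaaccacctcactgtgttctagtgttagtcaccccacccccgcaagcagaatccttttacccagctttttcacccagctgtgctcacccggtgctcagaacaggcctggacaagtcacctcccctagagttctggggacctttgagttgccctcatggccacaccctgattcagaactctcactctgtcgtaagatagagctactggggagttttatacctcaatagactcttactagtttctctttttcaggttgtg
Icosl: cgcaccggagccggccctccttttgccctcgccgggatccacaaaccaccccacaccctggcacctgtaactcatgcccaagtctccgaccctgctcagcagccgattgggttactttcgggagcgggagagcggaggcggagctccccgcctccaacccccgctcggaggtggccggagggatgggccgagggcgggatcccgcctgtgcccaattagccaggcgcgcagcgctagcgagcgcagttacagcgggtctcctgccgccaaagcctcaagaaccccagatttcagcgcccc

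Both strands were searched for 4 motifs. TTCNNNNGAA, the spacing that STAT6 prefers, was found in 1 of the 5 promoters, that of Pdcd1lg2, from 82 to 73 bases before the gene start, as TTCCTCAGAA. These letters stood in 6.95% of 32851 RefSeq promoters of the same length. GAGGAA, the core of the sites of the macrophage factor PU.1, was found on the other strand within the same stretch of Pdcd1lg2, from 82 to 77 bases before the start, and in the promoter of Cd276, against 28.3% of all promoters. TTCNNNGAA, the spacing of other STAT factors, and GAAANNGAAA, a pattern of interferon regulatory factors, were in 0 of the 5 and in 8.30% and 3.44% of all promoters. A match is a description of the letters and shows no binding.

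**Figure D1:**
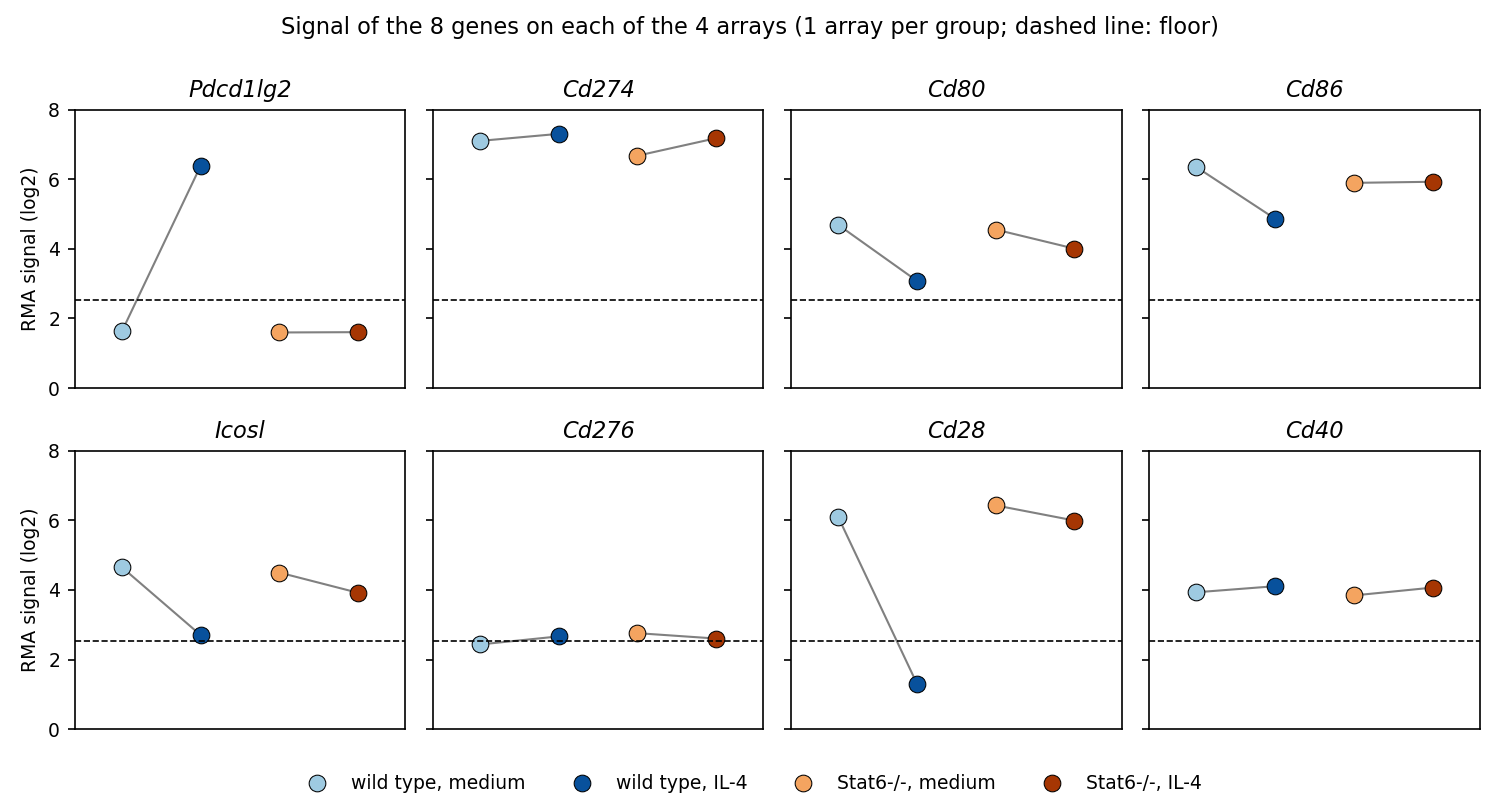
RMA signal (log2) of each of the 8 genes on the 4 arrays, 1 point per array, with grey lines joining medium and IL-4 of a genotype and a dashed line at the floor of 2.52. Pdcd1lg2 is above the floor in wild type with IL-4 alone, and Cd28 is below it in wild type with IL-4 alone.

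The labels and the cells were checked on the same arrays. Stat6 read 7.34 (medium) and 6.68 (IL-4) on the wild-type arrays against 4.54 and 4.25 on the Stat6-/- arrays, so both Stat6-/- arrays were lower, as labelled. Of 9 macrophage markers on the array, 8 were above the floor on all 4 arrays. Marco, a scavenger receptor, was at 2.34 in Stat6-/- in medium and above the floor elsewhere. Adgre1, which encodes F4/80, was at 10.75, 9.54, 10.29 and 10.06 in that order of arrays. Macrophage markers moved with IL-4 in wild type: Adgre1, Mertk, Fcgr1 and Cd14 fell, and the summed linear signal of the 9 markers was 10721, 6959, 9646 and 9625. Their part in the results on the 8 genes was not tested, and fewer cells of a kind and less RNA per cell cannot be told apart in such samples.

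Pdcd1lg2 encodes PD-L2. Wild-type cells gave a signal of 1.63 in medium and 6.39 with IL-4, and Stat6-/- cells gave 1.60 and 1.61. A single array stood high, and the other 3 were under the floor and within 0.03 of each other. Wild type with IL-4 was at least 14.5-fold above wild type in medium and at least 14.5-fold above Stat6-/- with IL-4. With signals under the floor raised to it, 8 of 10282 genes (0.0778%), Pdcd1lg2 included, rose at least this far in wild type. The difference between the IL-4 effects of the genotypes was 4.75, and 3.86 when signals under the floor were raised to it.

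Cd274 encodes PD-L1, the other ligand of PD-1. Its signals were 7.10 and 7.31 in wild type in medium and with IL-4, and 6.68 and 7.18 in Stat6-/-. All 4 arrays were far above the floor and spanned 0.63. The IL-4 effect was 0.20 in wild type and 0.50 in Stat6-/-, and the difference between these was -0.30, all short of 2-fold. In Stat6-/- cells 4.37% of 10410 genes had a positive difference at least as large as that of Cd274.

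The neighbours of this pair on chromosome 19 were read as well. Ric1, next to Pdcd1lg2 on the far side from Cd274, was at 5.58 and 5.95 in wild type and at 5.50 on both Stat6-/- arrays. Plgrkt, whose annotated span overlaps that of Cd274, was at 4.29 and 4.45 in wild type and at 4.63 on both Stat6-/- arrays. Among these 4 adjacent genes Pdcd1lg2 was the 1 that passed the rule in any comparison.

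Cd80 encodes B7-1, a ligand of CD28 and CTLA-4. Its signal was 4.69 and 3.08 in wild type in medium and with IL-4, and 4.56 and 4.01 in Stat6-/-. Wild type with IL-4 was the lowest array, and Stat6-/- with IL-4 was the next lowest. Cd80 fell 3.05-fold in wild type, and in Stat6-/- the difference was -0.55, short of the rule but in a range that 3.73% of genes reached. The difference between the effects was -1.06, which passed the rule as reported but was -0.91 after quantile normalization again, -0.96 with the intensity trend removed and -0.68 with the mean of both Cd80 probesets, and so under 2-fold in each. A second Cd80 probeset was under the floor on all 4 arrays, at 2.29, 1.57, 2.06 and 1.63.

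Cd86 encodes B7-2, which shares both receptors with CD80. Wild-type cells gave 6.35 in medium and 4.87 with IL-4, and Stat6-/- cells gave 5.90 and 5.93. Wild type with IL-4 was the low array, and the other 3 spanned 0.45. Cd86 fell 2.80-fold in wild type, was 0.03 apart in Stat6-/-, and was 2.09-fold higher in Stat6-/- than in wild type with IL-4. The difference between the IL-4 effects was -1.52, larger in size than that of Cd80.

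Icosl encodes the ligand of the T cell receptor ICOS. Wild-type cells gave 4.65 in medium and 2.70, just above the floor, with IL-4, and Stat6-/- cells gave 4.50 and 3.92. The order of the arrays was that of Cd80: both IL-4 arrays were lower than the medium arrays, with wild type the lower of them. Icosl fell 3.86-fold in wild type, and 91 of 10282 genes (0.885%) fell at least as far. The difference of -0.58 in Stat6-/- missed the rule and was reached by 2.88% of genes there. With IL-4 the gene was 2.32-fold higher in Stat6-/- than in wild type.

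Cd276 encodes B7-H3, a B7 family member whose receptor is not settled. Its signals were 2.43 and 2.67 in wild type in medium and with IL-4, and 2.76 and 2.60 in Stat6-/-. All lay within 0.24 of the floor, with wild type in medium below it, so that a fall in this gene would be hard to see here.

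Cd28 encodes the receptor for CD80 and CD86 and is best known from T cells. Wild-type cells gave 6.10 in medium and 1.31 with IL-4, while Stat6-/- cells gave 6.43 and 6.00. A single array was under the floor and the other 3 spanned 0.44. Cd28 fell at least 11.9-fold with IL-4 in wild type, and with IL-4 it was at least 11.1-fold higher in Stat6-/- than in wild type. With signals under the floor raised to it, Cd28 fell by 3.57 in wild type, and 6 of 10282 genes (0.0584%), Cd28 included, fell at least this far. The IL-4 effect in Stat6-/- was -0.44.

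Because Cd28 is a T cell gene, T cell markers were read beside it. Of 11 on the array, 7 were under the floor on all 4 arrays, among them Cd3d, at 1.36 or less, and Cd3g, at 1.74 or less, which encode chains of the T cell receptor complex. Cd3e, at 2.44, 2.52, 2.70 and 2.51, lay close to the floor and reached it in Stat6-/- in medium alone. The highest value of any of the 11 was 3.11, in Bcl11b, a transcription factor. The summed linear signal of the T cell list was 44.4 (medium) and 50.2 (IL-4) in wild-type cells and 49.7 and 48.5 in Stat6-/- cells, with most of these markers under the floor. Ctla4, the neighbour of Cd28 on chromosome 1 and its inhibitory relative, was under the floor at 1.67 to 1.74. Raph1, the neighbour on the other side, which encodes a regulator of the actin skeleton, fell by 1.31 in wild type, from 5.60 to 4.29, and was at 5.28 and 5.26 in Stat6-/-. The genes on either side of Cd80 (Pla1a, Timmdc1), Cd86 (Casr, Ildr1), Cd40 (Ncoa5, Cdh22), Icosl (Dnmt3l, Gatd3a) and Cd276 (Insyn1, Nptn) did not pass the rule in any comparison.

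Cd40, the receptor for CD40 ligand, was at 3.93 and 4.11 in wild type in medium and with IL-4, and at 3.84 and 4.07 in Stat6-/-. The 4 arrays spanned 0.27, the narrowest range of the 8 genes. The IL-4 effects were 0.17 and 0.23, and the difference between them was -0.05, whose sign changed with the normalization.

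**Figure D2:**
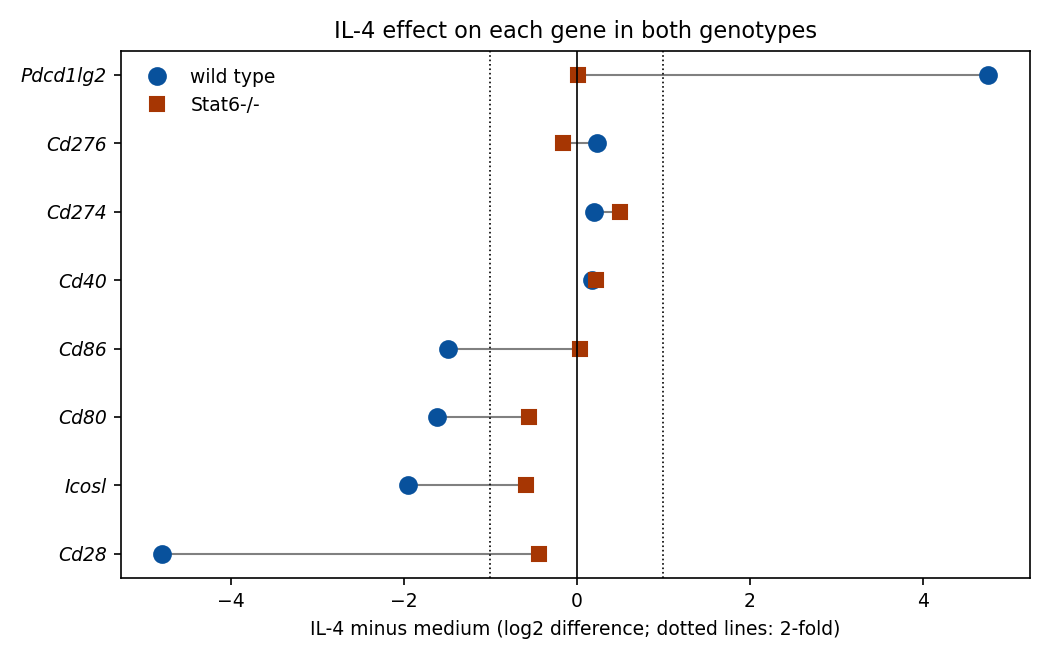
Log2 difference between IL-4 and medium for each of the 8 genes, wild type as circles and Stat6-/- as squares, with dotted lines at 2-fold in either direction. The wild-type points run from -4.79 (Cd28) to 4.76 (Pdcd1lg2), each with 1 of its arrays under the floor, while all Stat6-/- points lie between -0.58 and 0.50. The Stat6-/- value of Pdcd1lg2 comes from signals under the floor.

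Set against all genes, IL-4 in wild type changed 1 of the 8 upward and 4 downward, where the rule called 9.74% of 10282 genes tested (2.96% higher, 6.78% lower). The median difference of the 8 was -0.66, and that of all genes tested was -0.11. The middle 95% of all genes ran from -1.42 to 1.08, so that Pdcd1lg2, Cd28, Icosl, Cd80 and Cd86 lay outside it. On this pair of arrays 4 of the 9 macrophage markers also fell, with a median of -0.66 over the 9. Applying quantile normalization again moved the median of all genes to 0.02, and the higher share of calls from 30.4% to 45.2%. The calls of the 5 genes were the same in that setting, and a 1.5-fold rule, which called 28.3% of genes, added none of the 8.

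In Stat6-/- cells the rule called 0.355% of 10410 genes under IL-4, and 0 of the 7 members that reached the floor. Their median was -0.16, against -0.05 for all genes, whose middle 95% ran from -0.60 to 0.61. Icosl and Cd80 were near the lower end of that range and Cd274 near the upper end. Pdcd1lg2 was under the floor on both arrays and was not counted. The called genes divided into 0.24% higher and 0.115% lower. At 1.5-fold the rule called 5.73% of genes and still 0 of these.

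**Figure D3:**
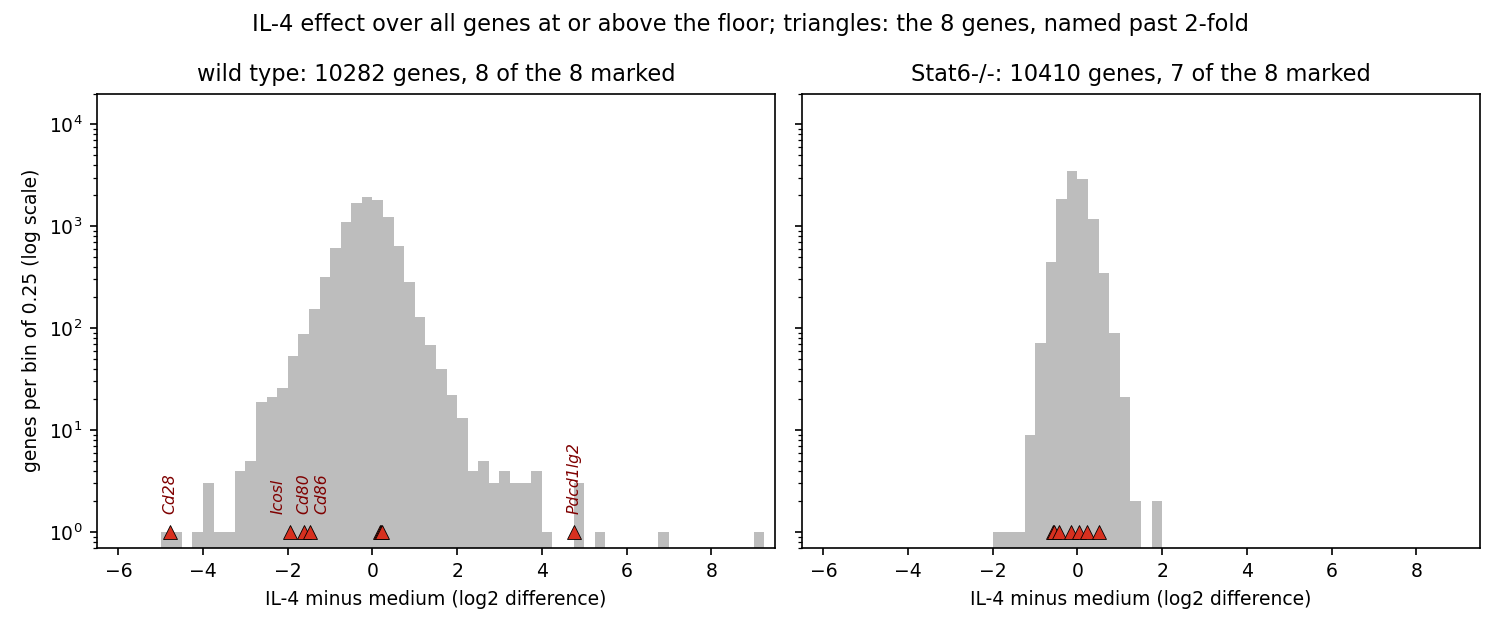
Number of genes (log axis) by log2 difference between IL-4 and medium, for the 10282 genes of wild type and the 10410 of Stat6-/- that reached the floor, with triangles at the 8 genes. Cd28 is near the low end of the wild-type distribution and Pdcd1lg2 near its high end, both measured against a signal under the floor, and the Stat6-/- distribution is narrower.

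Genotypes in medium differed little, in these genes as in most genes tested. The rule called 1.45% of 10299 genes and 0 of the 7 members above the floor, whose differences (Stat6-/- minus wild type) ran from -0.45 (Cd86) to 0.33 (Cd28), with a median of -0.13 beside -0.11 for all genes. Each of these 7 differences was at most 1.37-fold. Of all genes, 0.301% were called higher and 1.15% lower in Stat6-/-. The 1.5-fold rule called 10.8% of genes and 0 of these 7 members.

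With IL-4 the genotypes differed in 4 of the 8, where the rule called 8.84% of 10433 genes (4.01% higher, 4.83% lower). Cd28, Icosl and Cd86 were higher in Stat6-/- and Pdcd1lg2 was lower. Cd80, at 0.93 (1.90-fold), was just short of the rule, and passed the 1.5-fold rule with 23% of all genes. The median of the 8 was 0.44, and that of all genes was -0.0001.

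The difference of IL-4 effects passed the rule in 5 of the 8 genes (Pdcd1lg2 in one direction and Cd28, Cd86, Icosl and Cd80 in the other), with 8.97% of 10798 genes called (3.2% higher, 5.77% lower). The same 5 passed at 1.5-fold, with 26.2% of genes. This contrast shares its arrays with the comparisons above and adds no independent evidence. As a description chosen after the values were seen, wild type with IL-4 lay at least 2-fold beyond the nearest of the other 3 arrays for 5.14% of genes (2.07% above, 3.07% below). On the same signals Pdcd1lg2 (4.76 beyond), Cd28 (-4.69), Icosl (-1.22) and Cd86 (-1.03) did so, and Cd80 (-0.93) did not. With signals under the floor raised to it, Pdcd1lg2 was 3.86 beyond and Cd28 -3.47, and the other values were the same. The share of all genes was not computed with raised signals.

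Genes with the most similar course over the 4 arrays were found by the root mean square distance between signals centred on their mean, with those under the floor raised to it, among 10790 other genes. Nearest to Pdcd1lg2 were the cystine transporter Slc7a11 (distance 0.05), the ribonuclease gene Rnase2a (0.07) and the transcription factor Bhlhe40 (0.12). Cd28 had more distant companions: Thbs1 (0.19), a matrix glycoprotein, Ifit3 (0.23), an interferon-induced gene, and the ectonucleotidase Entpd1 (0.23). Cd86 was closest to Ifit3b (0.02), another interferon-induced gene, Ptger4 (0.04), a prostaglandin receptor, and Ccrl2 (0.05). Cd80 was closest to Hgsnat (0.04), Gbp9 (0.04) and Tut4 (0.04), and Icosl to Lpar6 (0.06), Engase (0.07) and Glul (0.08), the glutamine synthetase. For Cd274 they were B4galt7 (0.02), Vamp8 (0.02) and Gadd45g (0.02), for Cd40 E2f7 (0.01), Bok (0.02) and Abhd17a (0.02), and for Cd276 Gcat (0.01), Sptbn1 (0.01) and Dennd2a (0.01). With 4 arrays such likeness is a description of these arrays.

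The other genes of the pathway were taken from 8 lists with 125 genes, of which 114 were on the array. In wild type, 16 of the 75 that reached the floor passed the rule with IL-4, 8 higher and 8 lower. In Stat6-/- cells 0 of 73 did. In medium the genotypes differed in 1 of 73, and with IL-4 in 16 of 76. Of all genes tested, the rule called 9.74% with IL-4 in wild type and 0.355% in Stat6-/-. Between the genotypes it called 1.45% in medium and 8.84% with IL-4. The counts of 0 of 73 and 1 of 73 were thus near the shares of all genes. The same shares stand beside each list that follows.

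Of 4 other receptors of the B7 ligands, Rgmb was well above the floor. Ctla4 and Icos were under the floor on all 4 arrays, Pdcd1 (PD-1) reached it in wild type with IL-4 alone, at 2.63, and Rgmb, a second receptor of PD-L2, was at 4.58, 4.03, 4.37 and 4.59. None of the 4 passed the rule. Of 14 other B7 and butyrophilin genes on the array, 4 reached the floor in wild type and Vsir alone passed the rule. Vsir encodes the inhibitory molecule VISTA. It read 8.18 in medium and 6.90 with IL-4 in wild-type cells, a fall of 2.42-fold, and 8.44 and 8.23 in Stat6-/- cells.

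Of 20 TNF family costimulation genes, 4 reached the floor in wild type, and 0 passed the rule there. The rule called 9.74% of all genes in wild type, so 0 of 4 says little. Tnfrsf14, the receptor HVEM, had IL-4 effects of -0.85 in wild type and 0.18 in Stat6-/-, and the difference of -1.03 passed the rule. Of 15 genes of CD40 signalling above the floor, Traf5, an adaptor of TNF family receptors, rose by 1.10 in wild type (-0.04 in Stat6-/-), and the list's median was -0.32. Nfkbie, an inhibitor of NF-kappaB, had effects of 0.69 and -0.35, and was lower in Stat6-/- than in wild type with IL-4, at -1.57.

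In the SLAM family of leukocyte receptors, Slamf8 rose by 1.86 in wild type, from 3.13 to 5.00, and was under the floor in Stat6-/-, at 2.16 and 2.27. Slamf7 fell by 1.11 in wild type, from 4.46 to 3.36, and was at 3.41 and 3.79 in Stat6-/-. It was the 1 pathway gene that differed between the genotypes in medium, at -1.05. The other 5 of 7 members above the floor in wild type did not pass the rule there.

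Among other inhibitory receptors and ligands, 3 of 16 above the floor rose in wild type and 1 fell. Of all genes, 2.96% rose and 6.78% fell there. Timd4, a receptor for dying cells, rose by 1.44 in wild type to 4.31, and in Stat6-/- cells it read 2.92 (medium) and 2.19 (IL-4, below the floor). Lgals3, a galectin, rose by 1.16 (0.73 in Stat6-/-) and Lair1, an inhibitory collagen receptor, by 1.10 (0.40). Cd300a, an inhibitory receptor for phospholipids, fell by 1.75, with -0.07 in Stat6-/-. Cd300lf and Clec12a, both inhibitory receptors, had differences of effects of -1.44 and -1.09. Cd47 (8.63, 7.65, 8.65 and 8.31) and its receptor Sirpa (9.93, 9.59, 9.37 and 9.42), the signal that restrains engulfment, did not pass the rule.

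Genes that regulate PD-L1 and PD-L2 or sense the cytokines that induce them gave 2 rises and 4 falls of 19 in wild type. The shares of all genes there were 2.96% higher and 6.78% lower. The transcription factor Myc rose by 2.39, with -0.05 in Stat6-/-, and Csf2ra, a chain of the GM-CSF receptor, by 1.13, with 0.03. Ifnar2, a chain of the type I interferon receptor, fell by 1.34, the hypoxia factor Hif1a by 1.73, and the IL-4 receptor chains Il4ra and Il13ra1 by 1.57 and 1.36. Their effects in Stat6-/- lay between -0.56 and -0.17. Jak2, the kinase gene on the same chromosome as Cd274, was at 6.25, 6.70, 5.89 and 5.36, and was lower in Stat6-/- than in wild type with IL-4, at -1.34. Irf1, an interferon-induced regulator of Cd274, was at 6.93, 6.55, 6.64 and 6.95, and Cmtm6, which stabilises PD-L1 at the surface, was at 7.51, 7.06, 7.76 and 7.40. Neither passed the rule. Cmtm4, its relative, had a difference of effects of -1.10.

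Of 8 genes that regulate CD80 and CD86, the transcription factor Irf4 rose by 2.08 in wild type and Irf8 fell by 1.17, with -0.17 and -0.45 in Stat6-/-. The ubiquitin ligase genes Marchf1 and Marchf8, whose products remove CD86 from the surface, spanned 0.17 and 0.20 over the 4 arrays and did not pass the rule. In all, 22 pathway genes gave 50 calls over the 5 comparisons. Of these calls, 44 were kept in all of 3 other normalizations and 0 changed sign in any. The 6 calls lost in at least 1 of them, between 1.03 and 1.17 in size, were the wild-type falls of Irf8 and Slamf7, the genotype difference of Slamf7 in medium, and the differences of IL-4 effects of Cmtm4, Tnfrsf14 and Vsir.

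**Figure D4:**
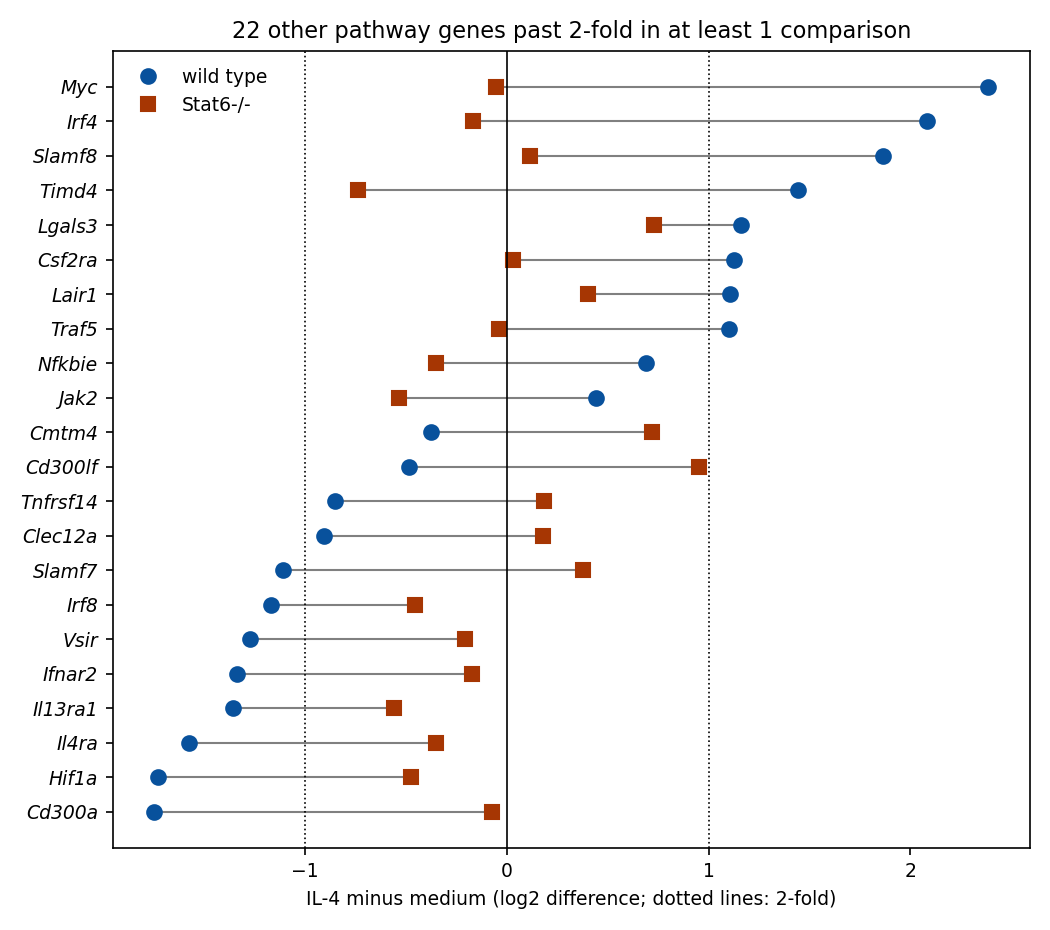
Log2 difference between IL-4 and medium for the 22 pathway genes outside the 8 that passed the 2-fold rule in at least 1 comparison, wild type as circles and Stat6-/- as squares, with dotted lines at 2-fold. The Stat6-/- squares all lie between the dotted lines, from -0.74 (Timd4) to 0.95 (Cd300lf).

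Markers of other presenting cells were read because Cd80, Cd86 and Icosl are also expressed by dendritic cells and B cells. Of 8 dendritic cell markers, 7 were under the floor on all 4 arrays, and Zbtb46 reached 2.92. Their summed linear signal was 27.7, 28.9, 28.9 and 29.5 with the wild-type arrays (medium, IL-4) before the Stat6-/- arrays. Of 7 B cell markers, 5 were under the floor on all arrays, Cd79b and Cd22 were above it, and the sums were 45.2, 42.8, 45.1 and 42.5. The highest values in the NK cell, mast cell and basophil, neutrophil and fibroblast lists were 2.88, 2.55, 2.56 and 3.41. No gene of these 6 lists passed the rule in any comparison, where it called 9.74% of all genes with IL-4 in wild type. Most of the listed genes were under the floor on all 4 arrays and could not be called, so this says little about those cells.

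**Figure D5:**
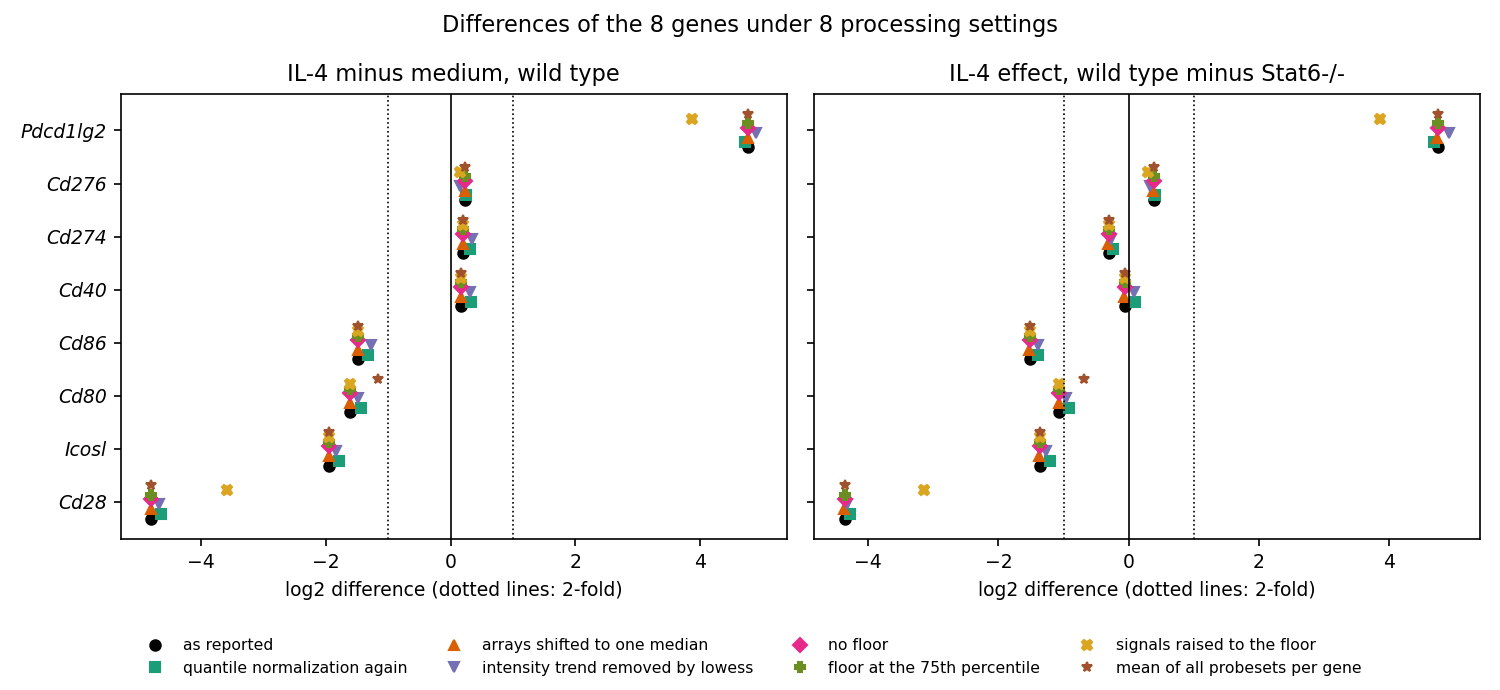
Log2 differences of the 8 genes under 8 settings of the processing, for IL-4 against medium in wild type (left) and for the difference of IL-4 effects (right), with dotted lines at 2-fold. The wild-type calls stay on their side of the lines. In the right panel Cd80 crosses the line in 3 settings.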

How the data were processed

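The authors deposited 1 log2 signal per probeset for each of 4 Affymetrix whole-transcript arrays. The submitters' processing notes name RMA and Affymetrix Expression Console. RMA corrects background, normalizes by quantiles and summarises probes on a log2 scale. RMA understates fold changes of weak genes. For versions, settings and build, the sources used here give nothing, and the log base was read from the range of values. The platform annotation gave a single symbol to 21789 of 35557 probesets and none to 12147, and 1621 with several symbols were left out. The probeset with the highest mean stood for each gene. The median over all probesets lay between 2.23 and 2.29 on the 4 arrays.

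Differences were taken in Python 3.11.15 with pandas 2.3.3 over all genes. A gene was called at 2-fold with the brighter array (for the difference of IL-4 effects, the brightest of 4) at the floor of 2.52. Where 1 array was under the floor, the fold is a lower bound against it. With 1 array per group no p-value was computed. The calling step was tested on simulated data with shifts larger than the rule in genes well above the floor. That test checked the code and not calls near the floor or near 2-fold. RefSeq (GRCm38.p6) gave neighbours and promoters.

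Named were the 8 genes, pathway list genes past the rule in any comparison, the 3 genes of most similar course to each and the neighbours of the 8. The other genes named in the pathway lists and among the markers were chosen after their values were seen. Of 188 list entries, 174 matched. The 8 genes and the lists were chosen with earlier results of these data known. Alternatives were quantile normalization again, arrays shifted to one median, lowess (fraction 0.3), no floor, a floor at the 75th percentile, signals raised to the floor, the mean of probesets and a 1.5-fold rule. Ranks and gaps with signals raised to the floor, and the 3 other normalizations of pathway genes, were added after the values were seen.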

Additional observations from a re-analysis of the deposited data

Results flagged for a closer look

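Of 85 genes at the floor among the 8 and the pathway lists, 11 (12.9%) had IL-4 effects of opposite sign in wild type and Stat6-/- cells together with a difference of effects past 2-fold, as did 565 of all 10798 genes (5.23%). Each effect rests on 1 array per group and the difference was not tested. Of the 8 genes described above, Cd86 was among them (-1.52). The Stat6-/- effects of Cd86 (0.03), Traf5 (-0.04) and Myc (-0.05) were close to 0, so that their sign says little. Those of Irf4 (-0.17), Clec12a (0.18), Tnfrsf14 (0.18), Nfkbie (-0.35) and Slamf7 (0.38) also lay within the middle 95% of all genes there (-0.60 to 0.61). Timd4 (-0.74), Cd300lf (0.95) and Cmtm4 (0.72) lay outside it, and Timd4 was under the floor in Stat6-/- with IL-4. The differences were 2.44 for Myc, 2.25 for Irf4, 2.18 for Timd4, 1.14 for Traf5 and 1.04 for Nfkbie, and in the other direction -1.49 for Slamf7, -1.44 for Cd300lf, -1.10 for Cmtm4, -1.09 for Clec12a and -1.03 for Tnfrsf14.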

How the results depend on the processing

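Over the 8 alternatives, 315 of 320 values of the 8 genes kept their call (higher, lower or none) and 0 of the called values changed sign. The exceptions were the difference of IL-4 effects of Cd80, which was -0.91 after quantile normalization again, -0.96 with the intensity trend removed and -0.68 with the mean of both probesets; Cd80 in Stat6-/- against wild type with IL-4 (0.93), which passes a 1.5-fold rule; and Icosl in the same comparison, which is left out by a floor at the 75th percentile. Much of this agreement was fixed by the settings. The 320 values include Pdcd1lg2 under IL-4 in Stat6-/- and between genotypes in medium, where its signals were under the floor. No floor, a floor at the 75th percentile and the 1.5-fold rule left every log2 difference unchanged. The mean of probesets could alter Cd80 alone, and raising signals to the floor altered only Pdcd1lg2, Cd28 and Cd276. In wild type Pdcd1lg2 ran from 3.86 to 4.90 and Cd28 from -4.79 to -3.57, the smaller sizes with signals raised to the floor. A 1.5-fold rule called 2907 genes under IL-4 in wild type, 596 in Stat6-/-, 1114 between genotypes in medium, 2398 with IL-4 and 2830 for the difference of effects, against 1001, 37, 149, 922 and 969. A floor at the 75th percentile called 20 genes under IL-4 in Stat6-/- and 93 between genotypes in medium. Quantile normalization again moved the higher share of calls from 20.8% to 37.2% between genotypes in medium and from 35.7% to 47.7% for the difference of effects. No paired analysis was possible because each group has 1 array, and for the same reason no array could be left out. Signals near or under the floor, as for Cd276, limit the falls that could be seen.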
